A study of Mus musculus with 6 samples.

Results

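The interferon-induced GTPase genes of the Gbp (guanylate-binding protein) and Irg (immunity-related GTPase) families were followed in sorted kidney cells after injury. The members were chosen by gene symbol: Gbp2, Gbp3, Gbp4, Gbp5, Gbp6, Gbp7, Igtp, Irgm1, Irgm2 and Iigp1, which are 10 of the 31815 gene rows in the deposited count table. All 10 passed the filter on low counts that left 15462 genes in the test, and the smallest count of any of them in any library was 125. The tdT+GFP+ cells were Acta2-GFP cells that had also switched on a tdTomato (tdT) reporter through an Axin2-driven, tamoxifen-inducible Cre, and the tdT-GFP+ cells were the GFP cells without it. Both came from the cortex and outer medulla of kidneys of male Axin2CreERT2/+:R26RtdT/+:Acta2-GFP mice, 9 to 12 weeks old, after bilateral kidney ischemia reperfusion injury, with tamoxifen on days 2 and 4 and the sort on day 6. The labels number the libraries of each population as biological replicates 1, 2 and 3, which makes 3 libraries a group. Same-numbered libraries are taken here as both sorts of the same kidney, called kidneys 1, 2 and 3. The labels do not say whether the kidneys came from different mice, and p-values measure the spread between these libraries. The red label marks cells in which Axin2, a target of canonical Wnt signalling, was active around the tamoxifen days, and GFP follows Acta2, which smooth muscle cells and pericytes as well as myofibroblasts can use.

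Gbp and Irg proteins are GTPases of cell-autonomous immunity. Interferon gamma, and to a varying degree type I interferon, induces their genes through transcription factors that bind the interferon-stimulated response element (ISRE) and the gamma-activated site (GAS) in promoters. Gbp proteins gather on bacteria and on the vacuoles of intracellular parasites and take part in inflammasome activation. Among the Irg proteins, Iigp1 is an effector that coats such vacuoles, while Irgm1, Irgm2 and Igtp (also called Irgm3) are regulators that sit on the cell's own membranes and keep the effectors inactive there. Endothelial cells, fibroblasts and macrophages can all make them in response to interferon.

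Library totals ran from 26919514 to 33029933 counts in tdT+GFP+ cells and from 25697348 to 31337198 counts in tdT-GFP+ cells. The 12 markers of myofibroblasts and their relatives summed to 44600 to 50000 CPM (counts scaled to 1e6 per library) in tdT+GFP+ libraries and to 34200 to 50900 CPM in tdT-GFP+ libraries, so the sorted stroma was present in all 6. Most of this sum was collagen, with means of 20600 and 18400 CPM for Col1a1 and 18900 and 17300 CPM for Col3a1 in tdT+GFP+ and tdT-GFP+ libraries. Acta2 had means of 1580 and 1160 CPM. Markers of other cells were present too, and their values are given beside the results below. Throughout, CPM are on TMM-scaled library sizes and log2 fold changes are tdT+GFP+ over tdT-GFP+.

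On GRCm38 the members fall into neighbourhoods. Gbp5 (chr3:142493978-142522344), Gbp7 (chr3:142530342-142550149), Gbp3 (chr3:142560026-142573209) and Gbp2 (chr3:142620602-142638008) lie in a row on the plus strand. Gbp4 (chr5:105115767-105139586) and Gbp6 (chr5:105270702-105293698) lie on the minus strand. Igtp (chr11:58199556-58207591) and Irgm2 (chr11:58199618-58222782) overlap on the plus strand, and Irgm1 (chr11:48861968-48871683) is on the minus strand. All 9 named here are annotated as protein coding.

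Promoter windows of RefSeq (GRCm38.p6, 250 bases before to 50 after the transcription start) were used for 7 of the 10 members. None was used for Gbp4, Gbp6 and Iigp1, which does not mean that these genes have no annotated window. The windows are shown because the family is known as interferon-induced, and their part in the levels measured here was not tested. An ISRE core, searched on both strands as GAAA, any 2 bases, GAAA, stood in a window of all 7 genes, against 3.44% of 32851 windows of this length. The GAS motif, searched as TTCNNNGAA, which reads the same on both strands, stood in 4 of the 7 (Gbp5, Gbp7, Igtp and Irgm2), against 8.3% of windows. In Igtp and Irgm2 the GAS match lies close before the ISRE match without overlapping it, and in Gbp3 and Irgm1 the run in capitals is a pair of overlapping ISRE matches. The 60 bases around the ISRE match nearest the start are given 5' to 3' on each gene's own strand, with motif matches in capitals.
Gbp2: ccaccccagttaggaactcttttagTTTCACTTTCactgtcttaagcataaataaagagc
Gbp3: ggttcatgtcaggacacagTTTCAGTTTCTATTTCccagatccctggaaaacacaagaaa
Gbp5: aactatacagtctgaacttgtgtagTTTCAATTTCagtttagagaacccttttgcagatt
Gbp7: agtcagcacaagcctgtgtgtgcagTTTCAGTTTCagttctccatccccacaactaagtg
Igtp: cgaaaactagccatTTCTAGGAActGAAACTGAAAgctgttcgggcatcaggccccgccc
Irgm1: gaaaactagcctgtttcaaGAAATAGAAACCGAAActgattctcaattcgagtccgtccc
Irgm2: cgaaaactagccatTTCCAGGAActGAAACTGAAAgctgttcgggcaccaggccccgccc
These stretches span chr3:142620579-142620638 for Gbp2, chr3:142559980-142560039 for Gbp3, chr3:142496744-142496803 for Gbp5, chr3:142530258-142530317 for Gbp7, chr11:58199497-58199556 for Igtp, chr11:48871410-48871469 for Irgm1 and chr11:58214888-58214947 for Irgm2, with Irgm1 on the minus strand. The ISRE match nearest the start lay within 64 bases of it in 6 of the 7, and began 165 bases upstream in Gbp5. A match is a run of letters, not a measured binding site.

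The whole windows are shown for Gbp3 (chr3:142559794-142560093, plus strand) and Igtp (chr11:58199306-58199605, plus strand). Among the members with a window used here, these were the Gbp gene and the Irg gene with the largest fold change. Capitals again mark motif matches.
Gbp3: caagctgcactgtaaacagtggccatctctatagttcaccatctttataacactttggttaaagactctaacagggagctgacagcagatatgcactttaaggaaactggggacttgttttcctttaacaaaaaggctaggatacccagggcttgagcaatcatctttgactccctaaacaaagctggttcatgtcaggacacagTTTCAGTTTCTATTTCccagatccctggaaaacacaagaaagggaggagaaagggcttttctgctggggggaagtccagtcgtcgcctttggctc
Igtp: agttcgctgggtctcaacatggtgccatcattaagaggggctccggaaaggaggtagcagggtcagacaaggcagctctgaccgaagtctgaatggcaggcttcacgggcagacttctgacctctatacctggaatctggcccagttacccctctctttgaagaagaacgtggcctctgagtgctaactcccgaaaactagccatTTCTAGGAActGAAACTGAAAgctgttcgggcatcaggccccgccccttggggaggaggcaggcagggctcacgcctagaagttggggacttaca
A window at another annotated start of Gbp3 held neither motif. The Igtp and Irgm2 windows share an identical run of 61 bases, the longest common run of any pair, while the next longest, between Gbp3 and Gbp7, was 13 bases. In the other lists, only genes with a window used here were counted. The ISRE core stood in 8 of 13 type I interferon targets and 5 of 8 related GTPase genes. It stood in 2 of 11 interferon gamma signalling genes, 2 of 11 other interferon gamma targets and 1 of 16 GTPase partners. Among cell type markers it stood in 1 of 11 lymphocyte genes and in 0 of 11 endothelial, 0 of 9 macrophage, 0 of 11 tubule and 0 of 7 myofibroblast genes. The GAS motif stood in 3 of 8 related GTPase genes, 4 of 11 interferon gamma signalling genes and 2 of 11 other interferon gamma targets. It stood in 2 of 13 type I interferon targets, 2 of 16 GTPase partners, 3 of 11 lymphocyte and 1 of 11 tubule genes. For endothelial, macrophage and myofibroblast genes the count was 0. A gene counts with a match in any window used here, whereas the percentages above count single windows. The windows behind those percentages need not leave out the same genes.

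**Figure D1:**
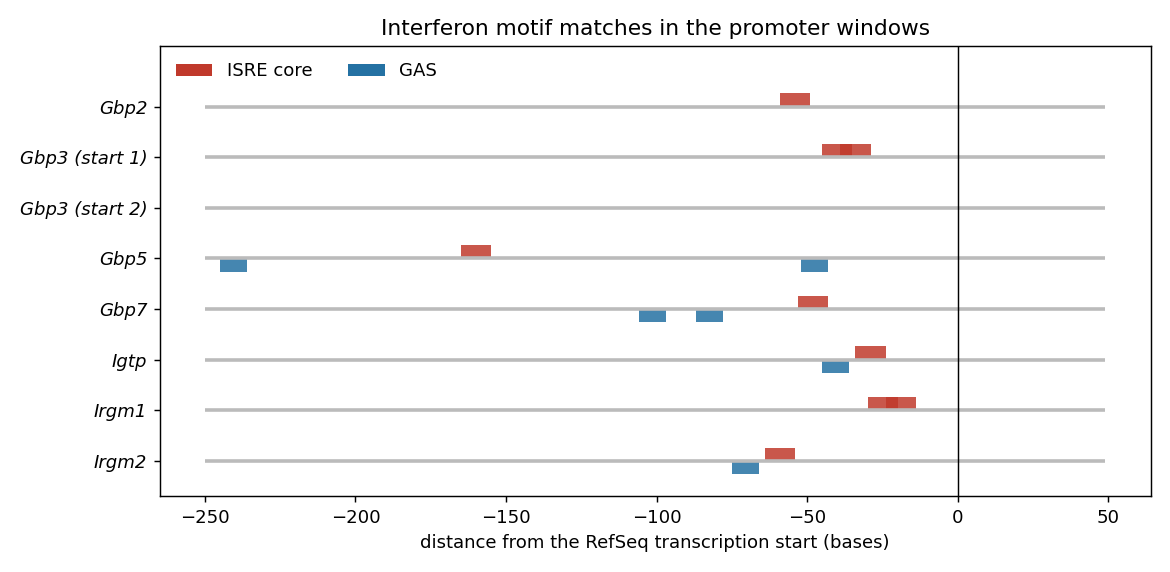
Positions of ISRE (red) and GAS (blue) matches in RefSeq promoter windows of 7 members; the horizontal axis is the distance in bases from the transcription start, and each grey line is a window. Gbp3 has 2 annotated starts, and the ISRE match nearest the start begins 165 bases upstream in Gbp5 and within 64 bases in the other 6 genes.

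All 10 genes had lower values in tdT+GFP+ cells, by a little under 2-fold in the median, and in each of them the highest tdT+GFP+ library lay under the lowest tdT-GFP+ library. Such a clean gap was found for 8.6% of all genes tested in this direction and for 7.23% in the other. None of the 10 passed an adjusted p of 0.05 in the edgeR quasi-likelihood test, in which 0.0% of genes were called lower and 0.0% higher. At an unadjusted p under 0.05, 10 of 10 had lower values, against 6.97% of all genes (3.71% had higher ones). The DESeq2 Wald test on the same genes called 7 of 10 lower, where it called 1.6% of all genes lower, and with the kidney as a block it called 8 of 10, against 1.59%. The members varied together across libraries, so these counts are not 10 separate observations. The list was also chosen with earlier results of these data known, so the counts beside these shares are a description and not a test.

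The Gbp genes of the chromosome 3 row differed in size of effect. Gbp2, whose protein is lipid-anchored and is recruited to parasite vacuoles, had 20.6, 22.6 and 26.1 CPM in tdT+GFP+ libraries 1, 2 and 3, against 38.0, 35.8 and 51.4 CPM in tdT-GFP+ libraries 1, 2 and 3. The groups did not overlap, though the highest tdT-GFP+ library, 3, stood well above the other two of its group (log2 fold change -0.86, SE 0.16, edgeR adjusted p = 0.394). Gbp3 had 15.7, 17.8 and 22.9 CPM in tdT+GFP+ cells, against 28.0, 40.7 and 41.7 CPM in tdT-GFP+ cells. Its tdT-GFP+ library 1 stood well under the other two of its group, yet above all tdT+GFP+ libraries (-0.97, SE 0.20, adjusted p = 0.394). Gbp5, known for promoting assembly of the NLRP3 inflammasome, was less abundant, with 6.96, 8.54 and 9.59 CPM in tdT+GFP+ cells, against 10.6, 14.8 and 16.4 CPM in tdT-GFP+ cells. The gap between its groups was narrow, 9.59 under 10.6 CPM (-0.74, SE 0.20, adjusted p = 0.409). Gbp7, which has been tied to the assembly of the phagocyte NADPH oxidase, had 25.8, 31.1 and 28.5 CPM in tdT+GFP+ cells, against 38.4, 35.1 and 45.9 CPM in tdT-GFP+ cells. It had the smallest fold change of the 10 (-0.48, SE 0.12, adjusted p = 0.404), and DESeq2 called neither it nor Gbp5 with or without the block.

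The Gbp genes of the chromosome 5 cluster showed some of the largest fold changes, from low levels. Gbp4 had 3.81, 5.93 and 5.29 CPM in tdT+GFP+ cells, against 9.05, 10.1 and 14.6 CPM in tdT-GFP+ cells, the largest fold change of the 10 (log2 fold change -1.17, SE 0.25, edgeR adjusted p = 0.394). Gbp6 had 7.75, 9.44 and 12.2 CPM in tdT+GFP+ cells, against 17.7, 20.9 and 23.5 CPM in tdT-GFP+ cells (-1.08, SE 0.19, adjusted p = 0.388). All 3 tdT+GFP+ libraries lay well under the tdT-GFP+ ones, and its unadjusted edgeR p was the smallest of the members (0.000936). The counts of this cluster are uncertain between copies: 70.7% of the 50-base stretches of Gbp6 transcripts recur in other genes, 65.0% in Gm43302 and 45.9% in Gbp10, and Gbp4 shares exon sequence with the overlapping Gbp8 and Gbp9. Gm43302 itself had at most 37 counts in any library.

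In the Irg genes too, every tdT+GFP+ library lay under every tdT-GFP+ library, and tdT+GFP+ library 3 and tdT-GFP+ library 1 came nearest to each other. Iigp1, the effector, is protein coding on the plus strand (chr18:60376027-60392634) and had 27.3, 32.5 and 43.8 CPM in tdT+GFP+ cells, against 50.8, 84.9 and 85.1 CPM in tdT-GFP+ cells. It had the largest fold change of the Irg genes (log2 fold change -1.09, SE 0.25, edgeR adjusted p = 0.394) and the smallest DESeq2 adjusted p of the 10 with the kidney as a block (1.29e-06, and 0.00562 without it). Irgm1, a regulator, had 31.1, 34.2 and 50.6 CPM in tdT+GFP+ cells, against 50.7, 83.1 and 81.1 CPM in tdT-GFP+ cells. Its groups all but touched, at 50.6 and 50.7 CPM (-0.89, SE 0.25, adjusted p = 0.414). Igtp had 8.36, 9.57 and 13.2 CPM in tdT+GFP+ cells, against 13.3, 22.2 and 23.4 CPM in tdT-GFP+ cells. Here too the groups nearly met (-0.92, SE 0.26, adjusted p = 0.414), and DESeq2 called Igtp when the kidney entered as a block (its adjusted p was 0.00846) and not otherwise (0.0645). Irgm2 had 19.2, 22.2 and 24.4 CPM in tdT+GFP+ cells, against 28.3, 36.1 and 43.5 CPM in tdT-GFP+ cells (-0.71, SE 0.17, adjusted p = 0.399). Igtp shares 11.8% of its 50-base stretches with Irgm2, and its exons overlap those of Irgm2, while the share found in other genes was 12.7% for Gbp7 and 0.31% to 7.77% for the remaining members other than Gbp6.

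**Figure D2:**
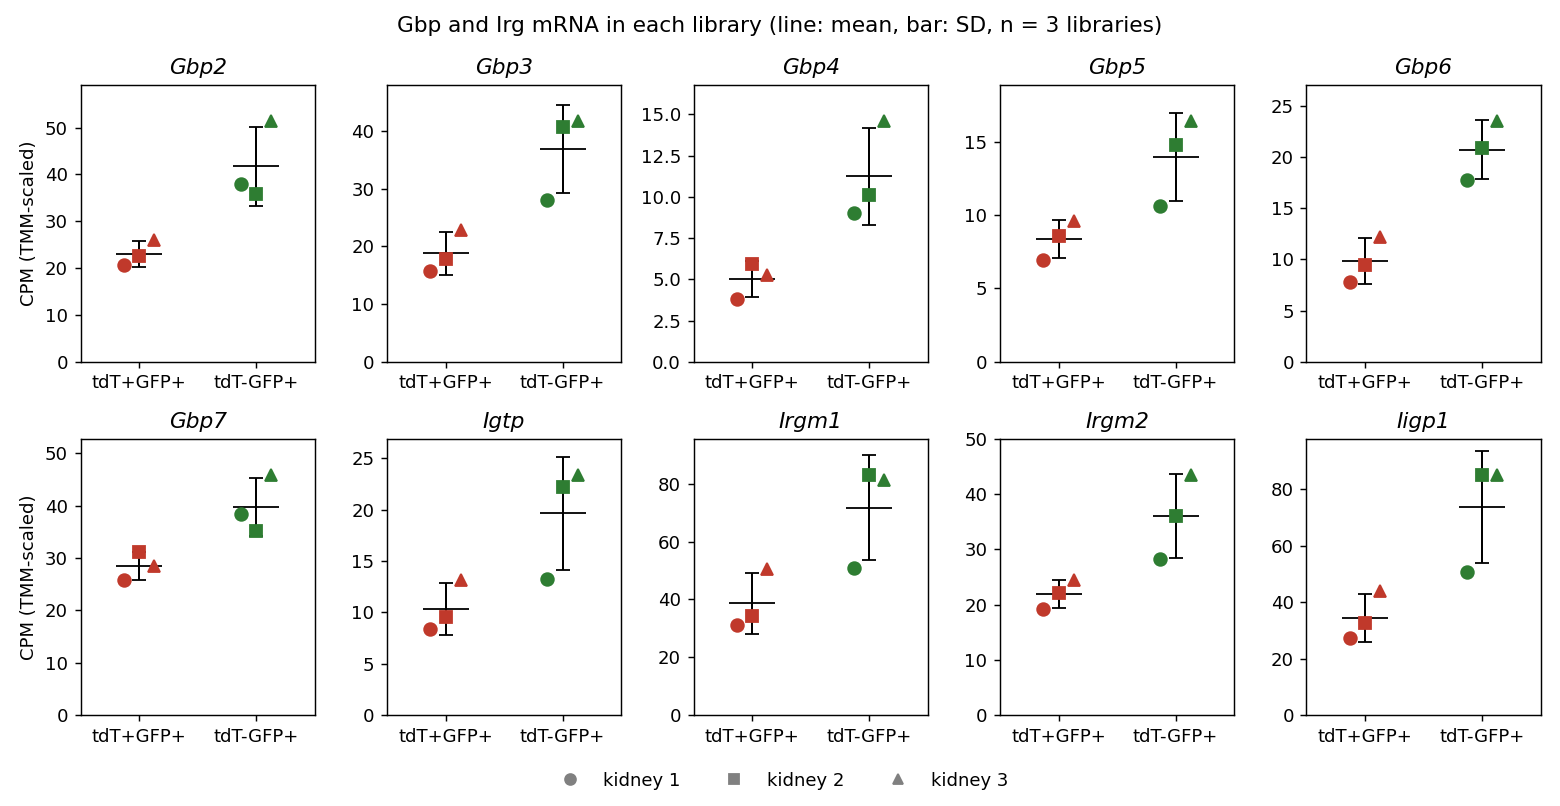
Levels of the 10 genes in CPM (vertical axes, from 0) in the 3 tdT+GFP+ (red) and 3 tdT-GFP+ (green) libraries, with the mean as a line and the SD as a bar; the symbol gives the kidney. In each panel the 3 red points lie under the 3 green points, by as little as 50.6 against 50.7 CPM in Irgm1.

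Summed over the 10 genes, the level was 167, 194 and 237 CPM in tdT+GFP+ libraries 1, 2 and 3, against 285, 384 and 427 CPM in tdT-GFP+ libraries 1, 2 and 3. The mean was 199 ± 35.3 CPM in the tdT+GFP+ libraries, against 365 ± 72.7 CPM in the tdT-GFP+ ones (n = 3 each, ± SD), 0.545 times as much in the tdT+GFP+ cells. The family was thus a minor part of the RNA, from 0.0165% to 0.0231% of counts in tdT+GFP+ cells and from 0.0276% to 0.0448% in tdT-GFP+ cells. The median log2 fold change of the 10 was -0.90 (range -1.17 to -0.48), while the median over all 15462 genes was 0.00. In bulk RNA, fewer cells that use these genes and less of their RNA per cell cannot be told apart.

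Compared within kidneys, all 10 genes were lower in the tdT+GFP+ library of each of the 3. Any pairing of the libraries would give this, since the groups did not overlap, so it adds nothing to that gap. The median difference of log2 CPM was -0.76 in kidney 1, -0.96 in kidney 2 and -0.85 in kidney 3. The widest differences were -1.46 for Gbp4 in kidney 3 and -1.39 for Iigp1 in kidney 2, and the narrowest was -0.17 for Gbp7 in kidney 2. The kidney numbers are the replicate numbers of the labels. Over all genes, libraries of the same number did not deviate together from their group means, and whether the numbers match in both sorts could not be settled, so every within-kidney value rests on the labels.

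**Figure D3:**
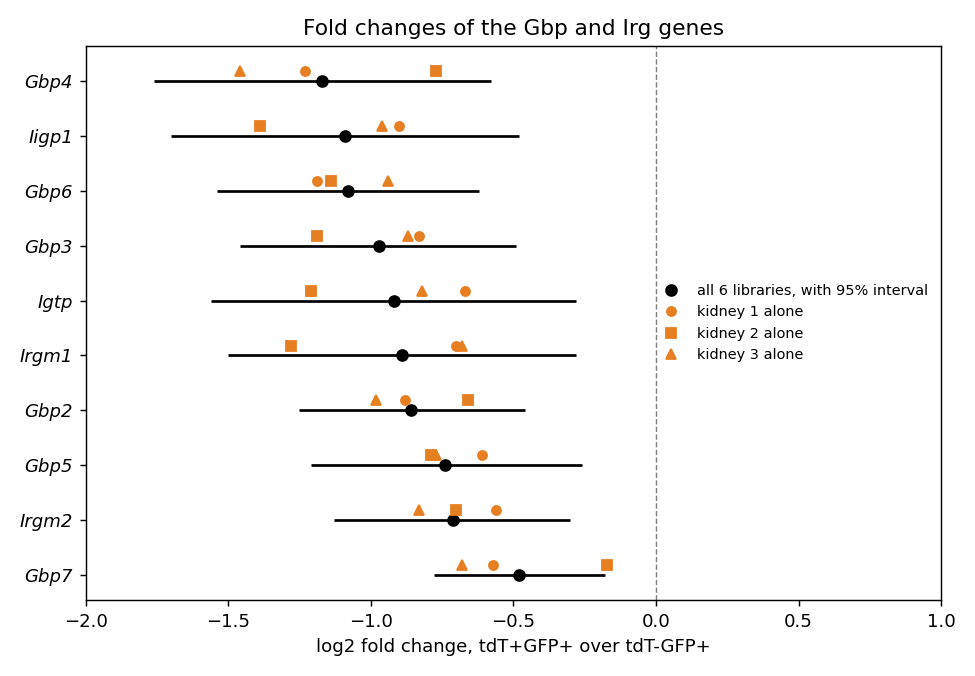
Log2 fold changes, tdT+GFP+ over tdT-GFP+, of the 10 genes from the fit to all 6 libraries (black, with 95% intervals, unadjusted) and as differences of log2 CPM within each kidney (orange; the symbol gives the kidney). All values lie under 0, from -1.17 for Gbp4 to -0.48 for Gbp7 in the fit, and the kidney closest to 0 is kidney 2 for Gbp7 (-0.17). As the groups do not overlap, the within-kidney values had to lie under 0.

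The genes also shared an order of libraries. All 10 were lowest in tdT+GFP+ library 1, 9 of 10 were highest in tdT-GFP+ library 3, and 8 of 10 were lowest within the tdT-GFP+ group in its library 1. The share of all genes with this order was not computed. Mean profiles of type I interferon targets, other interferon gamma targets, related GTPases, endothelial and tubule markers had the same lowest and highest library. Those of the other lists did not. Within this shared pattern the members parted in the tdT-GFP+ group. From library 1 to library 2 of that group, log2 CPM differed by 0.74 for Igtp and Iigp1, 0.71 for Irgm1 and 0.54 for Gbp3, but by -0.08 for Gbp2 and -0.12 for Gbp7. With each gene set to its own mean, the root-mean-square difference between the profiles of 2 members over the 6 libraries ran from 0.050 log2 units, for Igtp and Irgm1, to 0.433. Igtp and Irgm1 are thus the closest pair although they lie far apart on chromosome 11. Closest to the mean profile of the family were Gbp3 (0.078) and Gbp5 (0.088), and farthest were Gbp4 (0.210) and Gbp7 (0.277). As all members share the same 6 libraries, these distances are a description.

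Per kilobase of merged exon sequence, Gbp2 was the most abundant member in both populations, at 9.17 ± 1.11 CPM per kb in tdT+GFP+ libraries and 16.6 ± 3.37 in tdT-GFP+ libraries (n = 3 each, ± SD), though it overlapped the next gene in both. In tdT+GFP+ cells Irgm1, Irgm2, Iigp1, Gbp3, Igtp and Gbp7 followed at 6.65 to 5.07 CPM per kb. Each of these overlapped its neighbour in the order over the 3 libraries, so their order is not settled. A step then separated Gbp7 from Gbp6 (1.65 CPM per kb), which overlapped Gbp5 (1.26), and Gbp4 was the least abundant at 0.669 CPM per kb. In tdT-GFP+ cells the order of the level per kb began Gbp2, Iigp1, Irgm1, Gbp3, Irgm2, Igtp and Gbp7, from 16.6 to 7.09 CPM per kb, again with each overlapping the next. Gbp6 (3.48), Gbp5 (2.10) and Gbp4 (1.50) were again at the low end, where Gbp5 and Gbp4 overlapped.

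The 8 genes whose profile over the 6 libraries was most like the mean profile of the members, among named genes with a mean of at least 5 CPM, were Plcb4, Xaf1, Phf11d, Ptp4a3, Cdc14a, Ly6e, Bst2 and Efna1. Their root-mean-square differences from it ran from 0.049 log2 units for Plcb4, a phospholipase C gene, to 0.110 for Efna1, an ephrin ligand gene. Plcb4 had 7.84, 10.4 and 11.1 CPM in tdT+GFP+ cells, against 14.1, 18.7 and 21.9 CPM in tdT-GFP+ cells. Xaf1 (0.053 log2 units), also on the list of type I interferon targets, had 5.58, 6.90 and 8.64 CPM in tdT+GFP+ cells, against 10.9, 14.1 and 15.6 CPM in tdT-GFP+ cells. Ly6e, a gene for a lipid-anchored surface protein, was the most abundant of the 8, at 293 ± 42.9 CPM in the tdT+GFP+ libraries, against 489 ± 111 CPM in the tdT-GFP+ ones (n = 3 each, ± SD). Plcb4, Xaf1 and Ly6e were found by this likeness, so it is not tested.

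Related GTPase genes were mixed. Of 18 listed, 12 were tested. Of these 8 had negative and 4 positive log2 fold changes (median -0.77), 6 had an unadjusted p under 0.05, all lower, and DESeq2 called 3 lower, or 2 with the kidney as a block. Tgtp1 and Tgtp2, near-identical copies of an Irg effector gene, had 3.81 ± 0.979 and 9.20 ± 3.30 CPM in the tdT+GFP+ libraries, against 17.2 ± 9.42 and 23.6 ± 7.46 CPM in the tdT-GFP+ ones (n = 3 each, ± SD). Their log2 fold changes of -2.18 (SE 0.44) and -1.36 (SE 0.34) were larger than those of any member, though reads cannot be assigned surely between the copies. Gbp9, a neighbour of Gbp4, had 14.3 ± 2.33 CPM in the tdT+GFP+ libraries, against 26.8 ± 7.19 CPM in the tdT-GFP+ ones (-0.91, SE 0.21). Gbp10 had few reads, with 2, 5 and 4 counts in tdT+GFP+ libraries and 21, 13 and 25 counts in tdT-GFP+ libraries. Gbp11, Gm12250, Mx1 and Mx2 were not analysed here, and Gbp2b and Irgc1 had at most 3 counts in a library and were not tested.

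Upstream of the GTPases, Irf9 was lower in tdT+GFP+ cells by DESeq2, while a change of the receptor genes was not detected. Of 16 pathway genes 15 were tested. Of these 9 had negative and 6 positive log2 fold changes (median -0.20), 6 were lower and 1 higher at an unadjusted p under 0.05, and DESeq2 called 2 lower with or without the block. Irf9, part of the ISRE-binding complex of type I interferon, had 30.4 ± 4.86 CPM in the tdT+GFP+ libraries, against 48.1 ± 6.59 CPM in the tdT-GFP+ ones (n = 3 each, ± SD), a log2 fold change of -0.67 (SE 0.15, edgeR adjusted p = 0.394, DESeq2 adjusted p = 0.0152). Values were -0.72 (SE 0.24) for the transcription factor gene Batf2 and -0.44 (SE 0.15) for Stat2, which was -0.24 without both libraries of kidney 2. Named for their roles after their values were seen, the receptor genes Ifngr1 and Ifngr2 stood at log2 fold changes of 0.09 (SE 0.12) and 0.18 (SE 0.13), which turned to -0.08 and -0.05 without kidney 2. Irf1, a main activator of Gbp genes and also named for its role, had -0.92 (SE 0.35), and -0.40 without kidney 2. The ligand gene Ifng had 5, 4 and 2 counts in tdT+GFP+ libraries and 8, 6 and 3 in tdT-GFP+ libraries and was not tested.

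The type I interferon targets followed the GTPases closely. All 16 tested had negative log2 fold changes, with a median of -0.86. At an unadjusted p under 0.05, 13 were lower, and DESeq2 called 8 lower, or 9 with the kidney as a block. Usp18, which removes the modifier ISG15 from proteins, had 3.69 ± 0.614 CPM in the tdT+GFP+ libraries, against 9.10 ± 1.31 CPM in the tdT-GFP+ ones (log2 fold change -1.30, SE 0.19, n = 3 each). Rsad2, an antiviral enzyme gene also called viperin, had 20.3 ± 5.83 CPM in the tdT+GFP+ libraries, against 69.9 ± 25.3 CPM in the tdT-GFP+ ones (-1.78, SE 0.32), Ifi44 had -1.89 (SE 0.34) and Oas1a, a gene for a sensor of double-stranded RNA, had -0.77 (SE 0.16). For every 100 CPM of this list summed, the GTPases summed to 75.3, 71.3 and 74.5 CPM in tdT+GFP+ libraries 1, 2 and 3, against 73.6, 78.7 and 73.3 CPM in tdT-GFP+ libraries 1, 2 and 3. This ratio overlapped between the populations and varied far less than either sum.

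Targets of interferon gamma that are not GTPases had smaller fold changes as a list. Of 16 listed 15 were tested, 12 had negative values (median -0.46), and 9 were lower at an unadjusted p under 0.05. DESeq2 called 3 lower without the block and 3 with it, not the same genes. Tap1 and Parp14 were called both times. Cxcl9 was called only without the block (DESeq2 adjusted p = 0.0435, and 0.129 with it). Cxcl10, named for this call, was called only with it (0.0114, and 0.0537 without). Tap1 and Tap2, the peptide transporter of antigen presentation, stood at -0.55 (SE 0.12) and -0.44 (SE 0.11) on the log2 scale, Parp14 had -0.50 (SE 0.12), and the T cell attractant Cxcl9 had -1.22 (SE 0.31) at 2.00 ± 0.376 CPM in the tdT+GFP+ libraries, against 4.65 ± 1.65 CPM in the tdT-GFP+ ones (n = 3 each, ± SD). The 21 genes that work with the GTPases, of autophagy conjugation, inflammasomes and prenylation, had a median of 0.01, and 1 was lower at an unadjusted p under 0.05. That gene was Trim21, a ubiquitin ligase (-0.39, SE 0.16). The autophagy genes Gabarapl1, Atg7 and Sqstm1 had -0.26 (SE 0.11), 0.18 (SE 0.08) and -0.18 (SE 0.09), with -0.17 for Gabarapl1 without replicate 3 of tdT-GFP+ cells and 0.11 for Atg7 without kidney 2. DESeq2 called 0 of the 21.

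Markers of other cell types moved with the populations as well. Log2 fold changes were negative for 18 of 18 endothelial markers (median -1.27), of which DESeq2 called 11 lower, or 9 with the kidney as a block, and none was at 0 in any library. They summed to 1610, 2330 and 1880 CPM in tdT+GFP+ libraries 1, 2 and 3, against 3520, 2690 and 4410 CPM in tdT-GFP+ libraries 1, 2 and 3, which do not overlap. Within kidneys 1, 2 and 3 the endothelial sum in tdT+GFP+ cells was 0.457, 0.866 and 0.425 times that in tdT-GFP+ cells, while the GTPase sum was 0.585, 0.505 and 0.555 times. The sum is weighted to abundant genes such as Eng, with 766 ± 48.6 CPM in tdT+GFP+ and 856 ± 70.6 CPM in tdT-GFP+ libraries, and the endothelial markers did not move alike in kidney 2. The median difference of log2 CPM over the 18 was -1.35, -0.24 and -1.48 in kidneys 1, 2 and 3. Plvap was higher in the tdT+GFP+ library of kidney 2, by 1.07, and lower in kidneys 1 and 3 (-2.16 and -2.90). Cldn5 (-0.67, -3.50 and -0.44 in kidneys 1, 2 and 3), Sox17 (-0.24, -3.29 and -0.38), Vwf (0.10, -2.04 and 0.33) and Esam (-1.35, -1.59 and -1.14) were farthest apart in kidney 2. In every other marker of the list the kidney 2 value was the highest of the 3. There Pecam1, Eng, Emcn and Ehd3 stood at 0.04, 0.07, 0.03 and 0.39, and Tek, Kdr, Robo4 and Egfl7 at -0.05, -0.03, -0.08 and -0.11. These markers were named after their values were seen. For every 100 CPM of endothelial markers the GTPases summed to 10.3, 8.33 and 12.6 CPM in tdT+GFP+ libraries and to 8.08, 14.3 and 9.67 CPM in tdT-GFP+ libraries, which overlap. The part of endothelial cells in the result was not tested.

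Macrophage markers went the other way over all libraries, with 14 of 14 positive log2 fold changes (median 0.65) and none at 0. Their sum was 1450, 2030 and 565 CPM in tdT+GFP+ libraries, against 718, 416 and 1200 CPM in tdT-GFP+ libraries, so the groups overlapped and kidney 3 was reversed, while the GTPases were lower in tdT+GFP+ cells of all 3 kidneys. Among 14 counted markers of T, NK and B cells, 5 were tested, all with negative values, and the list summed to 3.31 to 6.51 CPM in tdT+GFP+ libraries and 4.19 to 7.60 CPM in tdT-GFP+ libraries. Cd3d, Gzma, Gzmb, Ncr1 and Ms4a1 were at 0 in at least 1 library. Of 12 tubule markers 9 had negative values (median -0.44), none was at 0, and DESeq2 called 1 lower (Slc12a3), or 4 with the kidney as a block (Kap, Slc12a1, Umod and Slc12a3). Those 4 genes were among 5 of the 12 that were lower in the tdT+GFP+ library of every kidney. Umod differed by -1.55, -2.91 and -0.74 and Slc12a1 by -1.50, -2.76 and -1.04 in kidneys 1, 2 and 3. Lrp2 (0.49, 1.71 and -2.22) and Slc34a1 (0.55, 1.55 and -1.64) were higher in kidneys 1 and 2 and lower in kidney 3. Cubn (0.64, 1.47 and -2.05) and Gpx3 (0.51, 0.90 and -0.72) did the same. Aqp2 (-0.43, -1.82 and 0.87) and Epcam (-0.32, -2.04 and 0.08) went the other way, and Slc22a6 stood at -0.01, 0.91 and -1.23. These genes were named after their values were seen. The tubule list summed to 1510 to 2210 CPM in tdT+GFP+ libraries and 1480 to 3060 CPM in tdT-GFP+ libraries, of which Gpx3 made up 1100 ± 427 and 910 ± 248 CPM. The part of macrophages, lymphocytes and tubule cells in the result was not tested.

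**Figure D4:**
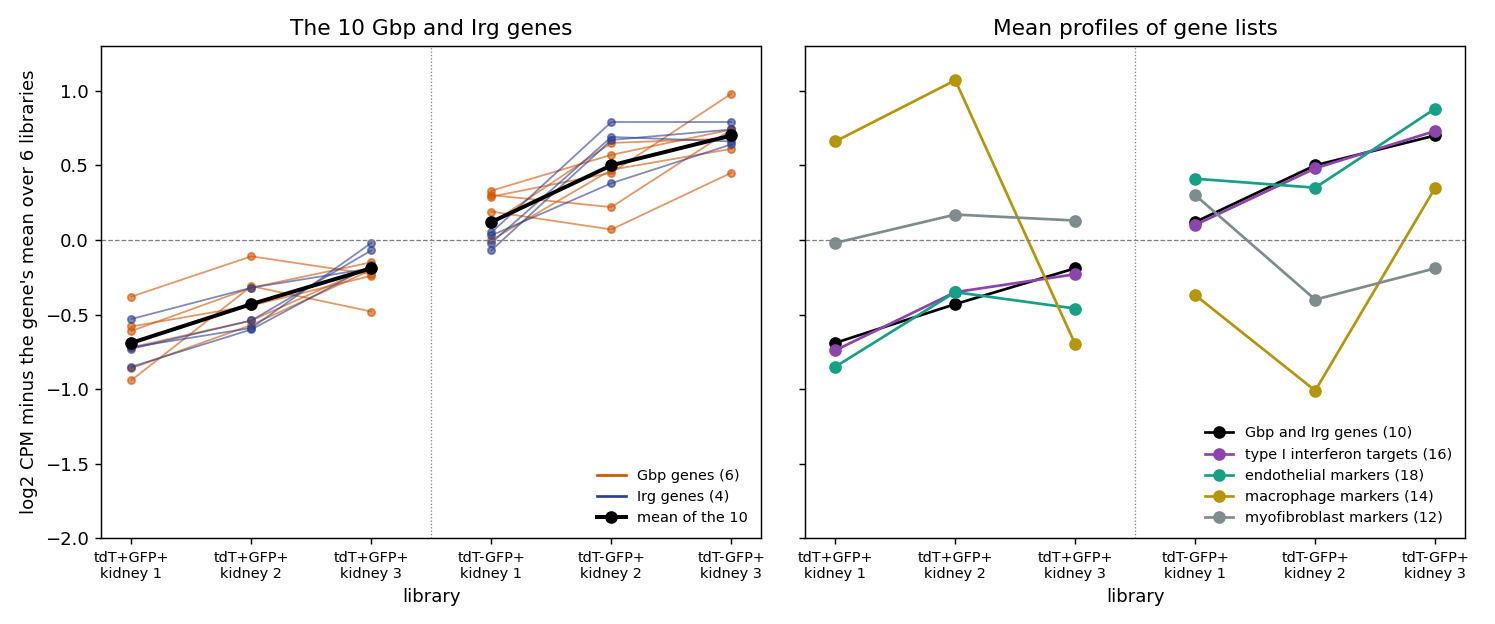
Profiles over the 6 libraries as log2 CPM minus each gene's mean (vertical axis), for the 10 genes on the left (Gbp orange, Irg blue, mean black) and for list means on the right, with the number of genes tested in brackets; lines join libraries of a group only to guide the eye. The mean of the members runs from -0.69 in tdT+GFP+ library 1 to 0.70 in tdT-GFP+ library 3, and the type I interferon targets run beside it from -0.74 to 0.73, and the endothelial markers have the same ends, at -0.85 and 0.88, while macrophage markers are highest in tdT+GFP+ library 2 (1.07).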

How the data were processed

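The 6 libraries were made from poly(A) RNA of sorted mouse kidney cells with a stranded kit, per the labels' protocols. What the authors deposited are expected counts of RSEM, one value a gene, already whole numbers per the file headers and values. The submitters' processing notes list STAR 2.6.1, RSEM 1.2.28 and the builds mm10 and GRCh38, with no role. As for strand use in counting, it was not given in the sources used here. Left out were 92 ERCC spike-in rows, which were 0 throughout. GENCODE M21 (GRCm38) held 31748 of the gene identifiers and gave coordinates and merged exon lengths.

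Low counts were filtered with filterByExpr. TMM scaling and the robust quasi-likelihood test of edgeR 4.0.16 followed in R 4.3.3, with p-values adjusted over all genes by Benjamini-Hochberg at 0.05. SEs came from the coefficient and its F statistic. Log2 CPM used a prior count of 2. The procedure was tested on 3 simulated data sets of 6 libraries, with 200 genes changed in each. At the adjusted threshold it called 59.5% of the genes with a true absolute log2 change of 1, and 94.5% of those with 2. These shares hold for the simulated spread between libraries, which need not be that of the members. The labels give same-numbered libraries the same replicate number, and the within-kidney values and the block take them as pairs on that ground alone. Their deviations from the group means did not run together over genes (Pearson correlation 0.0385 in kidney 1, -0.578 in kidney 2 and -0.304 in kidney 3). Alternatives were DESeq2 1.42.0 on the same genes, the kidney as a block, limma-voom 3.58.1, other scaling factors and filters, and leaving out each library or kidney.

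All members were named, with up to 4 genes by the smallest p of each list of related GTPases, interferon genes and partners, and the 8 genes of most similar profile; a gene of the signalling list is not reported here. The members and lists were chosen with earlier results of these data known. A floor of 3 counts is 0.0915 to 0.114 CPM in tdT+GFP+ and 0.0988 to 0.112 CPM in tdT-GFP+ libraries.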

Additional observations from a re-analysis of the deposited data

How the results depend on the processing

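All 170 values of the 10 genes under 17 alternatives were negative, from -1.39 to -0.37 on the log2 scale. Since the groups did not overlap in any of the 10, leaving out libraries could hardly turn a sign. The edgeR fits with other scaling factors, other filters and each library or kidney left out, and a limma-voom fit with the main settings, called 0 of 10, with adjusted p between 0.133 and 0.915. The DESeq2 Wald test called 7 members and 262 genes (15 higher and 247 lower), and DESeq2 with the kidney as a replicate block called 8 members and 276 genes (40 higher and 236 lower), while edgeR with the block called 0 members and 0 genes. The median log2 fold change of the members, -0.90, ran from -1.12 to -0.78 when single libraries were left out: it was -0.78 without tdT+GFP+ library 1 or tdT-GFP+ library 3, -1.12 without tdT+GFP+ library 3 and -1.10 without tdT-GFP+ library 1. The cause of the difference between tools was not tested. Depth does not limit the members, which had at least 125 counts in every library, but it does limit Ifng, Gbp10 and Gbp2b.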
